A study of Rattus norvegicus with 15 samples.

Results

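ATP-binding cassette (ABC) transporters are membrane proteins that use ATP to move lipids, drugs, conjugated organic anions, peptides, heme or fatty acyl-CoA across a membrane. Their signals were compared here between rejecting kidney allografts, syngeneic kidney grafts and native kidneys. The members are the probe sets whose single gene symbol is Abc followed by a letter from a to g and a number, and each gene is represented by its probe set with the highest mean log2 signal over all 15 arrays. This rule found 37 genes, on 50 probe sets, among 14217 genes on 20826 probe sets with a single symbol. They comprise 8 genes of subfamily A, 7 of B, 9 of C, 3 of D, 1 of E, 3 of F and 6 of G. The peptide transporters Tap1 and Tap2 and the chloride channel Cftr are also ABC proteins, but their symbols fall outside the rule, as do 2 probe sets that each carry a pair of ABC symbols.

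RNA was measured in whole kidneys of male rats aged 10 to 12 weeks on Affymetrix Rat Genome 230 2.0 arrays, with 5 kidneys and 5 arrays in each of 3 groups. The allogeneic group (aTX) comprised kidneys of Lewis-Brown-Norway (LBN) rats placed in Lewis (LEW) recipients and removed on day 4, a model of acute rejection. The syngeneic group (sTX) comprised LBN kidneys placed in LBN recipients and removed on the same day. Both kinds of recipient had lost their own kidneys at the operation, and the control group (ctr) comprised untreated native LBN kidneys. According to the series description these controls were the second kidneys of the donors, so a control and a graft may come from the same rat, and the labels do not pair them. The source names of the samples give other strains than the series description and the methods, which were followed. A treatment field calls sTX 4 and sTX 5 allogeneic against their titles, so each sTX comparison was repeated without both. Nothing in the labels gives immunosuppression, and the authors report that none was used. An LBN kidney placed in a LEW rat is a single strain pair.

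Values are MAS5 signal intensities, scaled on each array to a trimmed mean of 100. Differences are log2 fold changes with their standard error (SE) from 1 limma fit over all 15 arrays, and a call is an adjusted p (Benjamini-Hochberg over 31042 probe sets) under 0.05. The instrument records give a hybridization date and time for each array, and a gap of over 30 minutes was taken to start a new run. This rule gave 2 runs, called wash runs here, a name and a split that the records do not give. Run 1 held the 5 ctr arrays with aTX 2, aTX 3 and aTX 4, and run 2 held the 5 sTX arrays with aTX 1 and aTX 5. No run held both sTX and ctr arrays, so the fit with the run as a block compares them only through the allografts. Across the arrays, the 3'/5' signal ratio of the actin control probe sets was 1.23 ± 0.06 in aTX, 1.51 ± 0.06 in sTX and 1.74 ± 0.17 in ctr (SD, n = 5 each), and its part in the results was not tested.

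In the kidney, ABC proteins of the apical membrane of the proximal tubule, among them Abcg2, Abcb1a, Abcc2 and Abcc4, export drugs, urate and conjugates into the urine. Members of subfamilies A and G mainly move cholesterol and phospholipids, and Abca1 and Abcg1 are best known for cholesterol export from macrophages. Subfamily D and several members of subfamily B serve peroxisomes, mitochondria and lysosomes, Abcc8 and Abcc9 are subunits of ATP-sensitive potassium (KATP) channels, and subfamilies E and F have no membrane domain and act in translation.

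In aTX against ctr, 5 of the 37 genes were higher, 17 were lower and 15 had no call. Abcg1 and Abcg3l1 rose by over 2-fold along with Abca1, whereas Abca4, Abca2, Abcb6, Abcc9, Abcg2 and Abcd3 fell by over 2-fold with a group mean of at least 100. Of all 31042 probe sets, 20.2% passed the same test upward and 22.2% downward, 42.4% in all, and with 1 probe set for each of the 14217 genes 27.7% were higher and 27.7% lower, 55.4% in all. The share of ABC genes called was 59.5%, close to that background, with 13.5% higher and 45.9% lower. The median log2 change of the 37 genes was -0.48, against -0.03 over the 14217 genes. The groups did not overlap for 15 of the 37 genes (33.2% of all probe sets).

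In aTX against sTX, 4 genes were higher, 14 lower and 19 had no call. The background was 13.9% higher and 22.1% lower, 36.0% in all, over all probe sets, and 19.8% and 28.4%, 48.2% in all, over 1 probe set a gene. The ABC share of 48.6% was again near it, and the median change of the 37 genes was -0.38, against -0.13 over the 14217 genes. The groups did not overlap for 17 of the 37 genes (29.1% of all probe sets). In sTX against ctr, 3 genes were higher, 5 were lower and 29 had no call, with a background of 11.4% higher and 6.32% lower, 17.7% in all, over all probe sets and 16.1% and 8.86%, 25.0% in all, over 1 probe set a gene. The median change of the members in that comparison was -0.01 and 6 genes did not overlap (13.2% of all probe sets). The 3 comparisons share their arrays in pairs and are therefore not independent of each other. At an unadjusted p under 0.001, 4 genes were higher and 11 lower in aTX against ctr, 2 and 10 in aTX against sTX and 3 and 5 in sTX against ctr, with 30.3%, 24.4% and 10.4% of all probe sets past that limit. With the wash run in the model, 6 were higher and 13 lower in aTX against ctr (38.5% of all probe sets called), 5 and 12 in aTX against sTX (27.7%), and 2 and 2 in sTX against ctr (3.12%). Each limma p-value sets a difference between groups against the spread among these kidneys within their groups.

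**Figure D1:**
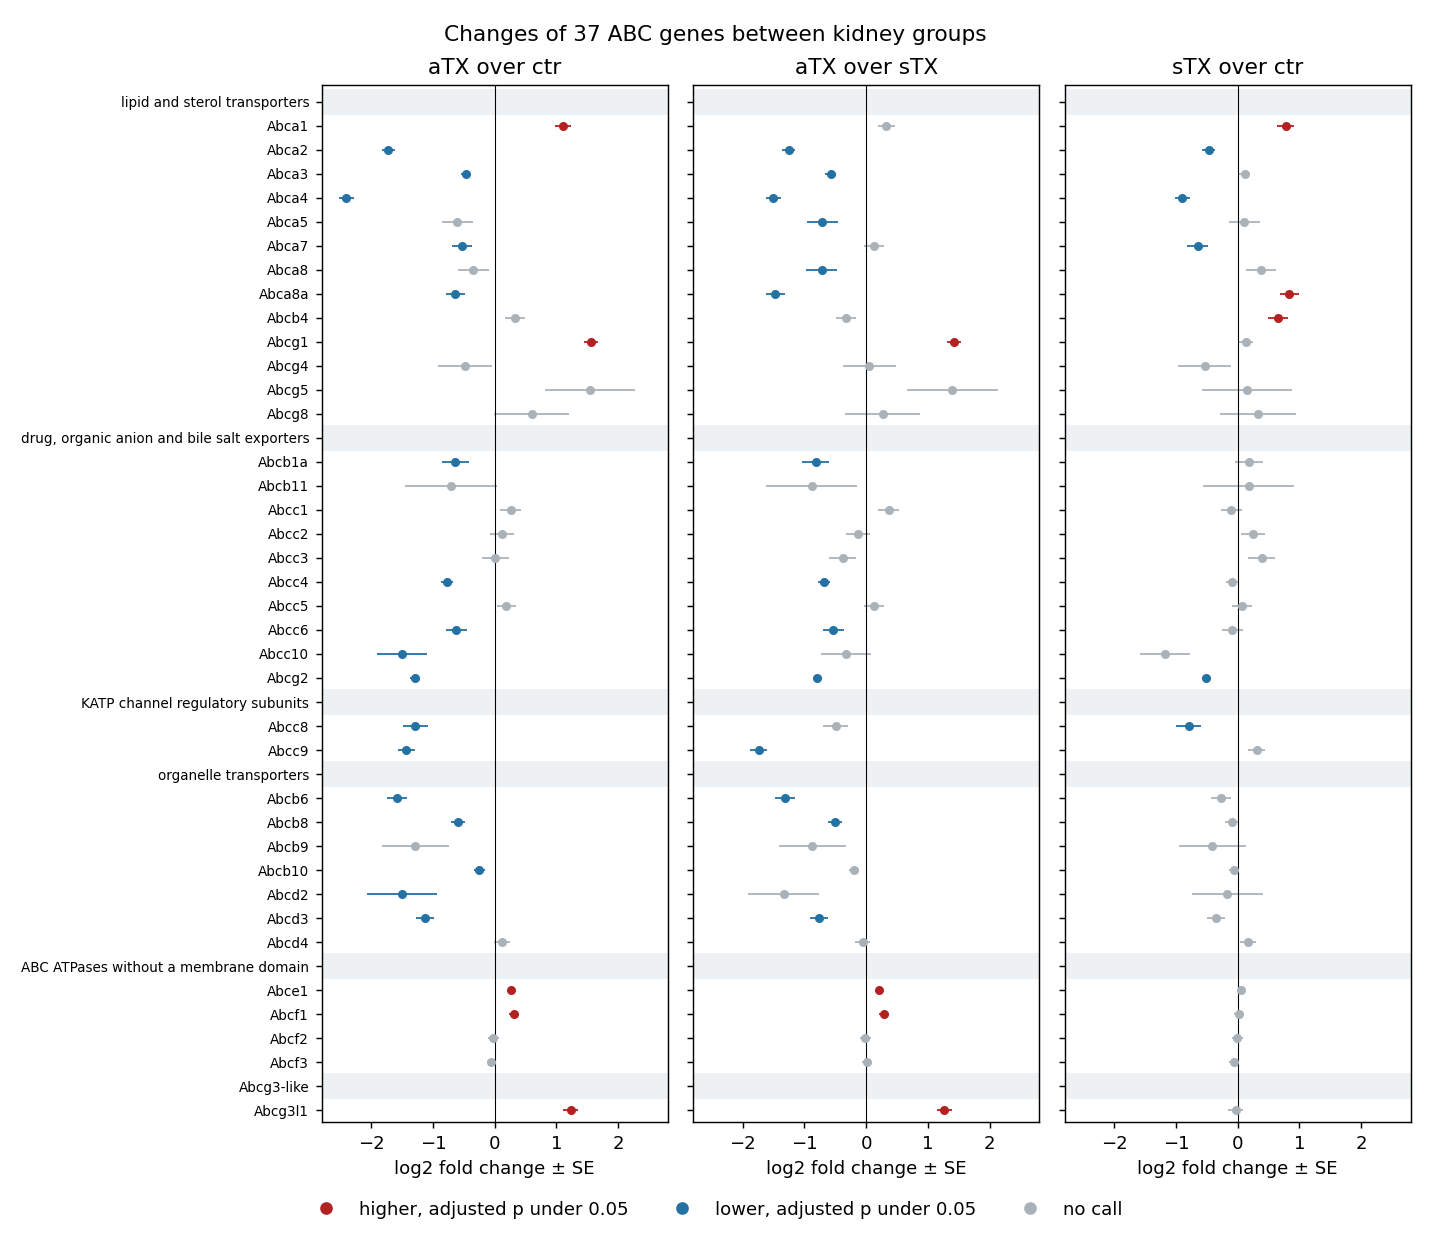
Log2 fold change with SE of each of the 37 ABC genes in aTX over ctr, aTX over sTX and sTX over ctr (x axes), grouped by role; red marks higher, blue lower and grey no call. Abca4 reached -2.40 and Abcg1 1.56 in aTX over ctr, and fewer genes were called in sTX over ctr (8) than in either comparison of aTX (22 and 18).

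Signal strength differed widely among the members. A group mean of at least 100 was reached by 19 genes, of which 5 were higher and 12 lower in aTX against ctr, where 76.9% of all genes of that strength had a call. In aTX against sTX 4 of the 19 were higher and 10 lower (68.9% called of all such genes), and in sTX against ctr 2 were higher and 4 lower (37.1%). Every group mean was under 50 for 14 genes, and 12 genes stayed under 50 on every array, so for these a missing call says little. Abcd2 stayed under 10 on all 15 arrays. These arrays hold tissue from the whole organ, in which fewer cells of a type and less RNA per cell cannot be told apart.

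Among the 13 transporters of lipids and sterols, 2 were higher (Abcg1 and Abca1), 5 lower and 6 without a call in aTX against ctr. Over all genes 55.4% had a call in this comparison, 27.7% higher and 27.7% lower. Abcg1, which passes cholesterol to high-density lipoprotein, had signals of 356.1, 341.4, 344.6, 320.6 and 418.4 in aTX 1 to 5, against 139.6, 120.0, 149.7, 142.1 and 113.1 in sTX 1 to 5 and 99.2, 120.0, 159.0, 103.6 and 130.7 in ctr 1 to 5. Every allograft lay above every syngeneic graft and every control. The fold change was 2.94 over ctr (log2 1.56 ± 0.12 SE, adjusted p = 8.0e-10, limma) and 2.68 over sTX (log2 1.42 ± 0.12, adjusted p = 6.2e-09). The log2 difference of Abcg1 in sTX against ctr was 0.13 ± 0.12 (adjusted p = 0.51). A second Abcg1 probe set was also higher in aTX than in ctr (log2 1.02) and sTX (log2 1.12), whereas the third, with means of 26.8, 20.6 and 20.8 in aTX, sTX and ctr, had no call.

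Abca1, which loads cholesterol and phospholipid on apolipoprotein A-I, had signals of 142.0, 178.6, 201.2, 191.5 and 203.5 in aTX 1 to 5, against 141.4, 151.2, 166.9, 169.2 and 106.3 in sTX and 82.4, 74.3, 68.9, 98.8 and 102.9 in ctr. Both kinds of graft lay wholly above the controls, and they overlapped with each other. The gene was 2.15-fold higher in aTX than in ctr (log2 1.11 ± 0.14, adjusted p = 1.1e-06, limma) and 1.72-fold higher in sTX than in ctr (log2 0.78 ± 0.14, adjusted p = 0.00040). Between aTX and sTX the log2 difference was 0.33 ± 0.14 and missed the threshold (adjusted p = 0.072). All 4 Abca1 probe sets were higher in aTX than in ctr and none had a call against sTX. In sTX against ctr 3 of the 4 were higher, and the call of the chosen probe set held with the wash run as a block (adjusted p = 0.040).

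The window from 250 bases before to 50 after the Abca1 start (RefSeq, GRCr8, chr5:72596424-72596723, minus strand) is shown because Abca1 was higher in both kinds of graft than in ctr. Capitals mark its GC box (GGGCGG) and its E-box (CACGTG), 1 of each.
Abca1: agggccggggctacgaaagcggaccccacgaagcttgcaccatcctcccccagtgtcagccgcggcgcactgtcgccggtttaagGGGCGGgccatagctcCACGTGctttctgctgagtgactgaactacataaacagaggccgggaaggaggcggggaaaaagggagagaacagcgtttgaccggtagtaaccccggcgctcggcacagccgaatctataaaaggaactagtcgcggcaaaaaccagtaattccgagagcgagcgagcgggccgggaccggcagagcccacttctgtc

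Abcg3l1, an Abcg3-like gene of rodents, had signals of 272.2, 242.0, 264.1, 225.7 and 221.5 in aTX, against 114.1, 124.0, 95.7, 96.2 and 83.8 in sTX and 101.5, 100.7, 80.3, 111.9 and 133.0 in ctr. No allograft overlapped with a syngeneic graft or a control. The fold change was 2.35 over ctr (log2 1.23 ± 0.12, adjusted p = 5.1e-08, limma) and 2.40 over sTX (log2 1.26 ± 0.12, adjusted p = 6.9e-08). A probe set shared by the genes Abcg3l4 and Abcg3l2, which is not among the members, averaged 797 in aTX, 137 in sTX and 122 in ctr (log2 2.70 over ctr and 2.55 over sTX). The files do not say whether probes of one Abcg3-like gene also bind transcripts of another.

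**Figure D2:**
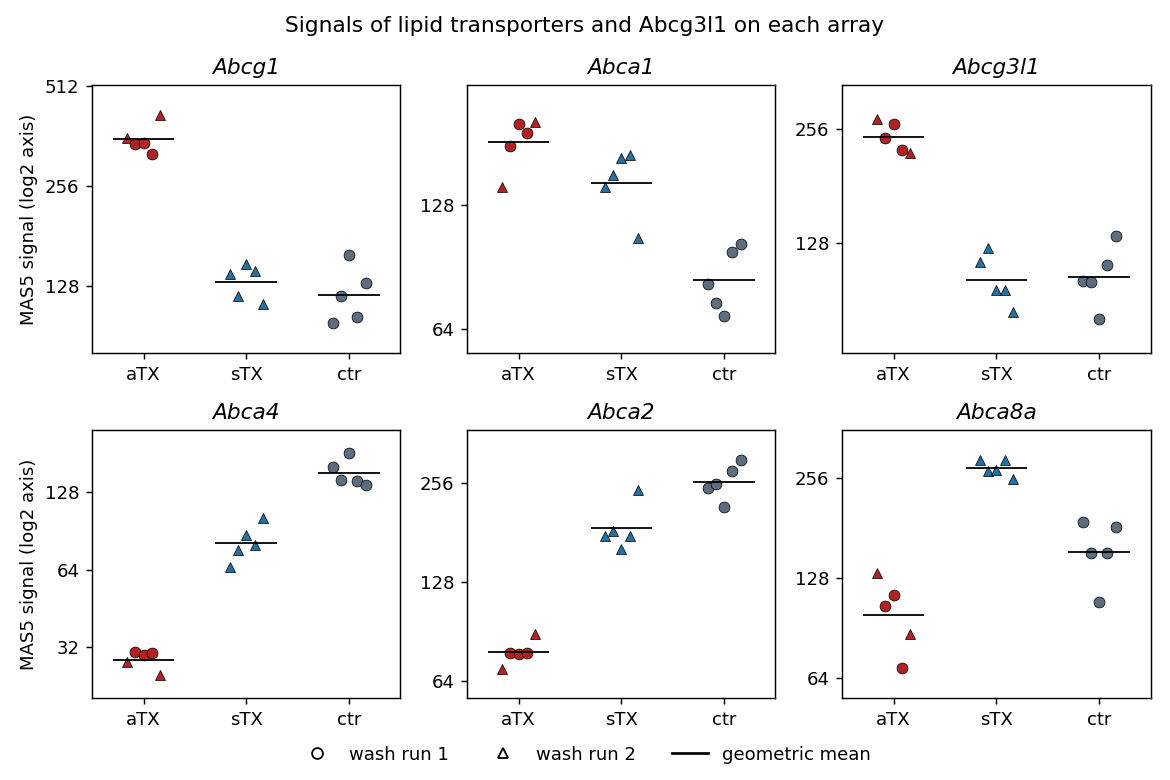
MAS5 signal (y axis, log2 scale) of Abcg1, Abca1, Abcg3l1, Abca4, Abca2 and Abca8a on each array of aTX, sTX and ctr; circles are wash run 1, triangles wash run 2 and lines geometric means. Abcg1 and Abcg3l1 stood apart in aTX, Abca1 was higher in both kinds of graft than in ctr, and Abca4 was lowest in aTX and highest in ctr.

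Markers of macrophages and T cells were also higher in aTX than in ctr. All 11 measured macrophage markers were higher in aTX than in ctr, and their summed signal was 8039 to 9127 in aTX, 1292 to 2218 in sTX and 638 to 827 in ctr. Of these 11, 10 were also higher in sTX than in ctr, against 7 called under the run block. The log2 differences of Abcg1 and Abcg3l1 in sTX against ctr were 0.13 and -0.03, neither called. Against sTX, 9 of the 11 were higher in aTX and 1 was lower, the latter without a call under the run block. All 10 T cell markers were higher in aTX than in ctr (sums of 2227 to 3568 in aTX, 245 to 392 in sTX and 144 to 239 in ctr). Of 4 B cell markers none was called in aTX against ctr and 2 were higher in aTX than in sTX, 1 with the run as a block. The part of these cells in the signals of Abcg1, Abca1 and Abcg3l1 was not tested.

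The largest fall among the 37 genes in aTX against ctr was that of Abca4, a phospholipid flippase known for its role in photoreceptors. Its signals were 28.0, 30.5, 29.7, 30.3 and 24.9 in aTX, 65.5, 76.5, 86.8, 79.7 and 101.8 in sTX and 159.9, 142.3, 180.8, 141.1 and 136.7 in ctr. The groups formed separate steps without overlap. Abca4 was 5.29-fold lower in aTX than in ctr (log2 -2.40 ± 0.12, adjusted p = 1.9e-12, limma), 2.84-fold lower in aTX than in sTX (log2 -1.51 ± 0.12, adjusted p = 3.7e-09) and 1.86-fold lower in sTX than in ctr (log2 -0.90 ± 0.12, adjusted p = 1.8e-05). With the wash run as a block the call in sTX against ctr was lost (log2 -0.71, adjusted p = 0.072).

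Abca2, a lysosomal transporter linked to sphingolipid and cholesterol handling, had 69.6, 77.8, 77.4, 77.9 and 88.9 in aTX, against 176.7, 183.2, 160.9, 176.6 and 244.2 in sTX and 248.2, 254.4, 216.4, 277.8 and 301.7 in ctr. Every allograft lay below the other 10 kidneys, and sTX 5 overlapped with the controls. It was 3.31-fold lower in aTX than in ctr (log2 -1.72 ± 0.11, adjusted p = 5.7e-11, limma) and 2.39-fold lower than in sTX (log2 -1.25 ± 0.11, adjusted p = 1.3e-08). The difference of -0.47 ± 0.11 in sTX against ctr passed the test (adjusted p = 0.0039) and did not with the wash run as a block (adjusted p = 0.21).

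Abca8a, a lipid transporter of subfamily A, was highest in sTX. Its signals were 132.1, 105.2, 113.8, 68.4 and 86.8 in aTX, 289.6, 268.5, 270.6, 289.1 and 254.5 in sTX and 188.1, 152.0, 108.1, 152.7 and 181.9 in ctr. Syngeneic grafts had the highest signals without overlap, and allografts overlapped with controls through ctr 3. The log2 difference was -1.47 ± 0.15 in aTX against sTX (2.78-fold lower, adjusted p = 1.8e-07, limma), 0.83 ± 0.15 in sTX against ctr (1.78-fold higher, adjusted p = 0.00059) and -0.64 ± 0.15 in aTX against ctr (1.56-fold lower, adjusted p = 0.0018). Under the run block the rise in sTX lost its call (log2 0.64, adjusted p = 0.25).

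Abca3, which loads surfactant lipids into lamellar bodies in the lung, averaged 177 ± 15.8 in aTX, 265 ± 29.98 in sTX and 244 ± 12.7 in ctr, and was lower in aTX in both comparisons (log2 -0.47 against ctr and -0.58 against sTX) on both of its probe sets. Abca7, a phospholipid transporter linked to phagocytosis, had 67.9, 74.3, 60.1, 65.7 and 77.8 in aTX and 50.4, 57.0, 60.1, 77.6 and 74.9 in sTX, against 107.3, 106.2, 121.9, 114.3 and 60.2 in ctr. Both kinds of graft lay below the controls except ctr 5, whose signal was within the range of the grafts. The calls (log2 -0.52 ± 0.16 in aTX and -0.65 ± 0.16 in sTX against ctr) held without ctr 5, and the second was lost with the run as a block (adjusted p = 0.19). Abcb4, the phosphatidylcholine flippase of bile canaliculi, was the third gene higher in sTX than in ctr, at 36.6 ± 4.8 in sTX and 23.3 ± 2.6 in ctr (log2 0.65 ± 0.16, adjusted p = 0.0078), and is named although its signals were low. With the run as a block that call held (log2 1.04, adjusted p = 0.041). Under the block Abcb4 was also called higher in aTX (29.3 ± 4.3) than in ctr (adjusted p = 0.037) and lower in aTX than in sTX (adjusted p = 0.047). Within the shared run alone neither of these calls was made (adjusted p = 0.079 and 0.071, limma). Its allografts of run 1 (31.1 to 33.4) did not overlap with those of run 2 (24.2 to 25.1), so the blocked values rest on different allografts.

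Abca5 and Abca8, both with every group mean under 50, were lower in aTX than in sTX only by a margin that 5 of 10 single left-out arrays removed for each. The sterol transporters Abcg4, Abcg5 and Abcg8 had group means of 3.78 to 11.1 and no call. Abcg5 had a log2 difference of 1.54 ± 0.74 in aTX against ctr (adjusted p = 0.10), which shows how wide the error was at such signals.

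Of 16 measured partners in cholesterol export and transfer, 7 were higher and 3 lower in aTX against ctr, with a median log2 change of 0.39. The background for this list and for the regulators below was 27.7% higher and 27.7% lower over all genes. The lipoprotein receptor gene Lrp1 averaged 459 in aTX, 170 in sTX and 114 in ctr (log2 2.01 in aTX over ctr), the sterol hydroxylase gene Cyp27a1 268, 95.2 and 91.2 (log2 1.57), and the cholesteryl ester hydrolase gene Nceh1 276, 133 and 112 (log2 1.30). Apoe, which takes up exported cholesterol, was lower at 1475 in aTX, 1872 in sTX and 2108 in ctr (log2 -0.49). Among 19 regulators of ABC genes, 4 were higher and 8 lower in aTX against ctr. Of the liver X receptors, which drive Abca1 and Abcg1, Nr1h2 was higher in aTX (443) than in sTX (353) and ctr (332), whereas Nr1h3 averaged 136 in aTX, 138 in sTX and 158 in ctr without a call. Hif1a was higher in aTX (log2 1.46 over ctr), and Hnf4a (log2 -1.18) and the bile acid receptor gene Nr1h4 (log2 -1.35) were lower.

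Of the 10 exporters of drugs, organic anions and bile salts, none was higher in aTX against ctr, 5 were lower (Abcg2, Abcc4, Abcb1a, Abcc6 and Abcc10) and 5 had no call. Over all genes 55.4% had a call in this comparison, so the share called was near that background, and the median log2 change of the 10 was -0.63. Abcg2, which exports urate and many drugs, was lower in both kinds of graft. Its signals were 327.0, 368.1, 339.1, 379.3 and 390.3 in aTX, 612.3, 670.8, 593.6, 652.2 and 593.0 in sTX and 857.3, 873.7, 781.3, 945.6 and 982.5 in ctr. No group overlapped with another. Abcg2 was 2.46-fold lower in aTX than in ctr (log2 -1.30 ± 0.07, adjusted p = 9.8e-12, limma), 1.73-fold lower in aTX than in sTX (log2 -0.79 ± 0.07, adjusted p = 2.8e-08) and 1.42-fold lower in sTX than in ctr (log2 -0.51 ± 0.07, adjusted p = 4.3e-05). With the wash run as a block all 3 calls held, the last at an adjusted p of 0.045.

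The Abcg2 window (RefSeq, GRCr8, chr4:89075224-89075523, plus strand) is shown because Abcg2 stepped down over the 3 groups. Capitals mark 4 GC boxes, read on either strand as GGGCGG or CCGCCC.
Abcg2: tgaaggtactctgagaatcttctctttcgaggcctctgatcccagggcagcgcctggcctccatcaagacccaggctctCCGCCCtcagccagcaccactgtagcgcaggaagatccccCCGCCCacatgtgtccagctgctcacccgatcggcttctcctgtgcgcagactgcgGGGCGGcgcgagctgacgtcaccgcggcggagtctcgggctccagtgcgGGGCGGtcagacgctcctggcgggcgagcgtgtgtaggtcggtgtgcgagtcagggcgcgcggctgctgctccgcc

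Promoter windows of this length were found in the RefSeq table for 30 of the 37 genes. The GC box, bound by Sp1-like factors, was present in 21 of these 30 windows (70.0%), against 33.1% of all 33469 windows. It was present in 2 of 3 windows of genes higher in aTX against ctr, in 12 of 15 of genes lower and in 7 of 12 of genes without a call. The CCAAT box was present in 11 of the 30 (36.7%), against 37.5% of all windows, and the E-box CACGTG in those of Abca1 and Abcb6 (6.67%), against 6.42%. The 33469 windows were not limited to the 14217 genes measured on the arrays, as the members are. How the shares compare within the measured genes was not tested. Both strands were searched, and no motif overlapped with another in the sequences printed.

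Abcc4, which exports cyclic nucleotides, urate and prostaglandins, had 140.0, 133.8, 129.3, 149.2 and 170.4 in aTX, against 241.4, 186.3, 244.4, 241.3 and 246.4 in sTX and 239.8, 291.7, 223.1, 251.6 and 230.2 in ctr. Every allograft lay below every other kidney. It was 1.71-fold lower in aTX than in ctr (log2 -0.78 ± 0.10, adjusted p = 1.1e-06, limma) and 1.60-fold lower than in sTX (log2 -0.68 ± 0.10, adjusted p = 9.1e-06), and in sTX against ctr the log2 difference was -0.09 ± 0.10 (adjusted p = 0.59).

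Abcb1a encodes a form of P-glycoprotein, a multidrug exporter. Its signals were 16.6, 33.6, 28.2, 38.2 and 33.6 in aTX, 51.3, 51.3, 55.9, 48.9 and 48.0 in sTX and 28.4, 53.3, 40.9, 68.1 and 43.4 in ctr. Allografts lay below every syngeneic graft and overlapped with the controls. The log2 difference was -0.82 ± 0.22 against sTX (adjusted p = 0.0057, limma) and -0.64 ± 0.22 against ctr (adjusted p = 0.025), and the second was lost with the run as a block (adjusted p = 0.18) and without aTX 1, ctr 2 or ctr 4. A second Abcb1a probe set was lower in aTX in both comparisons (log2 -1.04 against ctr and -0.85 against sTX).

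Abcb1b, the other rodent P-glycoprotein gene, is measured here only by a probe set that it shares with Abcb1a. That probe set had 69.7, 91.4, 73.2, 71.6 and 75.9 in aTX, 81.6, 64.7, 57.3, 56.7 and 65.4 in sTX and 64.6, 50.7, 58.8, 57.1 and 80.4 in ctr, with no call (log2 0.30 in aTX over ctr, adjusted p = 0.069). Unlike the Abcb1a probe sets it did not lie lower in aTX. The log2 ratio of its signal to that of the Abcb1a probe set with the higher signal was 1.39 ± 0.43 in aTX, 0.34 ± 0.24 in sTX and 0.45 ± 0.61 in ctr (SD, n = 5 each). The ratio was higher in aTX than in sTX (difference 1.05, exact two-sided permutation p = 0.0079, the smallest that 5 against 5 allows, 0.016 adjusted over 6 such tests) and than in ctr (difference 0.94, exact permutation p = 0.024, 0.036 adjusted). Against the second Abcb1a probe set the differences were 1.09 over sTX and 1.35 over ctr, each with an exact permutation p of 0.0079. This ratio was examined after the values had been seen, and it shows unequal change of the probe sets within an array, not which of both genes changed. The permutations did not take the wash run into account.

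**Figure D3:**
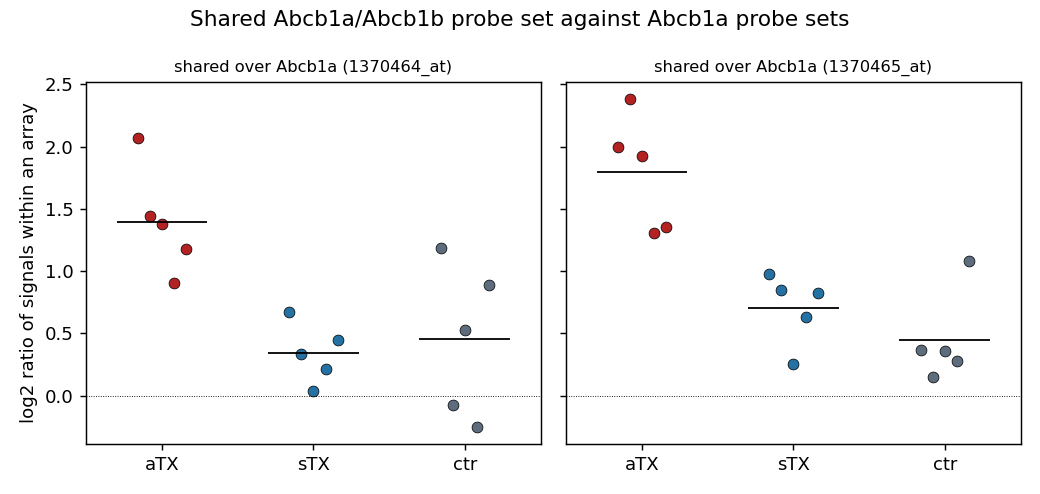
Log2 ratio of the signal of the probe set shared by Abcb1a and Abcb1b to that of each Abcb1a probe set within an array (y axis), for the 5 arrays each of aTX, sTX and ctr; lines are means. The mean ratio to the first probe set was 1.39 in aTX, 0.34 in sTX and 0.45 in ctr, and no aTX array overlapped with sTX in either panel.

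The other exporters of subfamily C were lower or without a call. Abcc6, an exporter at the basolateral side of hepatic and renal cells, averaged 30.5 ± 6.2 in aTX, 44.2 ± 9.4 in sTX and 46.4 ± 5.4 in ctr and was lower in aTX against ctr (adjusted p = 0.0052). Abcc10, a broad drug exporter, was lower in aTX (13.2 ± 7.8) than in ctr (32.8 ± 7.1) and lost that call under the run block (adjusted p = 0.075). Neither was called in sTX against ctr.

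Abcc2, the apical exporter of glutathione and glucuronide conjugates, had 29.2, 33.6, 31.7, 45.2 and 47.8 in aTX, 48.5, 45.3, 40.1, 41.9 and 28.9 in sTX and 26.7, 36.1, 27.9, 47.2 and 35.6 in ctr. All 3 groups overlapped, with a log2 difference of 0.11 ± 0.19 in aTX against ctr (adjusted p = 0.69, limma). Abcc3, a basolateral exporter of conjugates, had 42.3, 38.8, 22.8, 43.0 and 42.0 in aTX, 43.4, 38.6, 61.1, 56.4 and 43.9 in sTX and 48.8, 50.4, 38.9, 24.0 and 28.6 in ctr, again with overlap (log2 0.01 ± 0.22 in aTX against ctr, adjusted p = 0.98). Abcc5, which exports cyclic nucleotides, averaged 79.6, 73.7 and 70.2 in aTX, sTX and ctr and had no call on either probe set. The bile salt pump gene Abcb11 stayed at or under 10.9 on every array.

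Abcc1, which exports glutathione conjugates and leukotriene C4, had 129.0, 76.9, 83.2, 73.6 and 112.3 in aTX, 63.5, 57.5, 92.8, 74.6 and 76.8 in sTX and 74.9, 78.6, 108.4, 62.8 and 69.6 in ctr. The allografts of wash run 2 (112.3 to 129.0) lay above those of run 1 (73.6 to 83.2) without overlap. Over all arrays Abcc1 had no call in aTX against sTX (log2 0.36 ± 0.17, adjusted p = 0.11, limma), but with the run as a block it was higher in aTX (log2 0.74, adjusted p = 0.0054), as it was within run 2 alone (adjusted p = 0.0074). Against ctr, where the shared run is run 1, the blocked log2 difference was 0.01 (adjusted p = 0.98). Among all 37 genes, 11 had signals in the allografts of run 2 that did not overlap with those of run 1, as did 23.9% of all probe sets. The 2 blocked Abcc1 values therefore rest on different allografts, and whether the runs or the kidneys differ cannot be told apart.

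**Figure D4:**
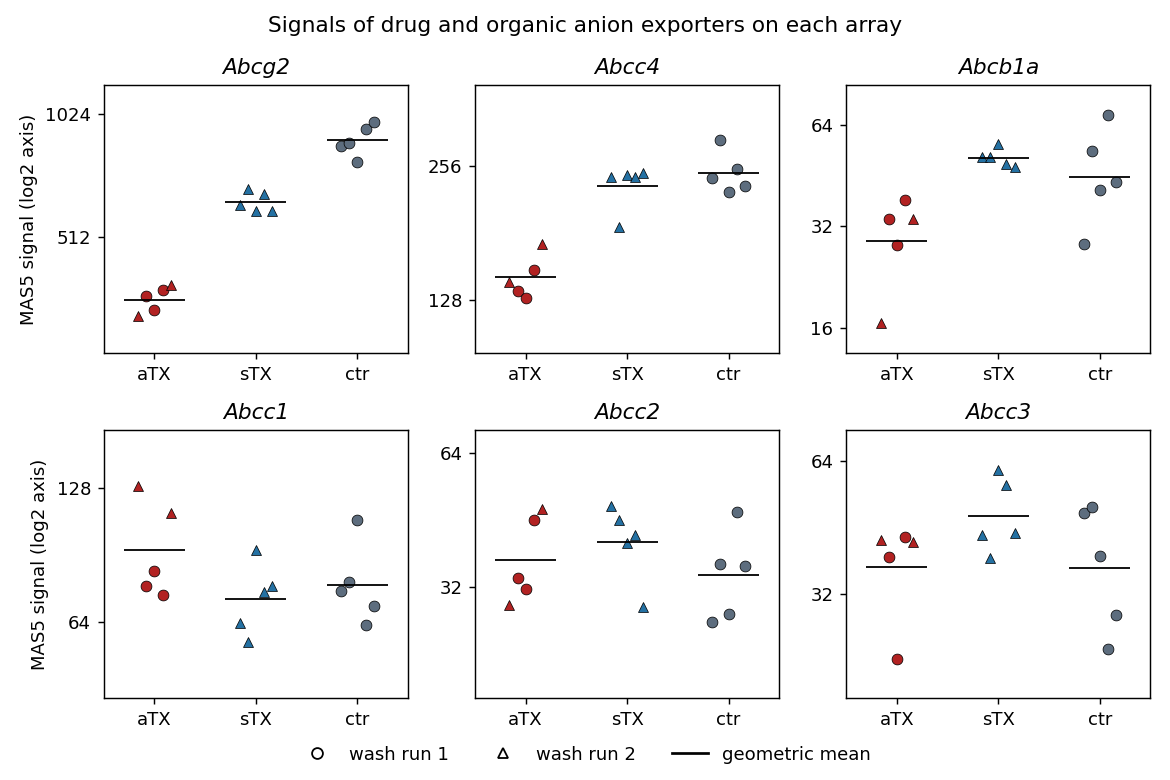
MAS5 signal (y axis, log2 scale) of Abcg2, Abcc4, Abcb1a, Abcc1, Abcc2 and Abcc3 on each array of aTX, sTX and ctr; circles are wash run 1, triangles wash run 2 and lines geometric means. Abcg2 formed 3 separate groups, Abcc4 was lower in aTX only, and the Abcc1 allografts split by wash run.

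Carriers that work beside these exporters were lower in more cases than higher. For this list and the next, the background in aTX against ctr was 27.7% higher and 27.7% lower over all genes. Of 18 organic ion carriers and antiporters, 1 was higher and 14 were lower in aTX against ctr, with a median log2 change of -0.96. The basolateral carriers Slc22a6 and Slc22a8, which bring organic anions into proximal tubule cells, averaged 369 and 662 in aTX, 1107 and 1902 in sTX and 1640 and 2402 in ctr (log2 -2.17 and -1.85 in aTX over ctr). The apical Slco1a1 averaged 122 in aTX, 308 in sTX and 964 in ctr (log2 -3.15). Of 20 genes of glutathione synthesis and conjugation, which supply substrates of Abcc2 and Abcc4, 1 was higher and 16 were lower in aTX against ctr (median log2 -0.79). Gstm2 averaged 127 in aTX, 361 in sTX and 406 in ctr (log2 -1.67) and Gss, the glutathione synthase gene, 610, 1180 and 1716 (log2 -1.50).

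Markers of the cells that carry these transporters also moved. The shares over all genes in aTX against ctr were 27.7% higher and 27.7% lower. Of 11 proximal tubule markers, 10 were lower in aTX against ctr, with summed signals of 10066 to 12739 in aTX, 19561 to 22582 in sTX and 22257 to 27923 in ctr. Of 11 markers of thick limb, distal tubule and collecting duct, 10 were lower, and of 9 endothelial markers 8 were (sums of 1029 to 1159 in aTX, 2002 to 2252 in sTX and 2231 to 2607 in ctr). Of 6 podocyte markers 5 were lower and 1 was higher. Of the 11 proximal tubule markers 5 were lower in sTX against ctr (8.86% of all genes), and none was with the run as a block. The part of these shifts in the falls of the exporters was not tested.

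Both KATP channel subunits of the family were lower in aTX against ctr. Abcc9, the sulfonylurea receptor of vascular smooth muscle and pericytes, had 51.3, 37.8, 41.8, 35.0 and 32.8 in aTX, against 118.9, 144.7, 163.6, 133.1 and 102.5 in sTX and 112.2, 129.8, 93.1, 104.8 and 93.4 in ctr. Every allograft lay below the other 10 kidneys. It was 3.34-fold lower in aTX than in sTX (log2 -1.74 ± 0.14, adjusted p = 4.9e-09, limma) and 2.70-fold lower than in ctr (log2 -1.43 ± 0.14, adjusted p = 3.7e-08), and all 3 Abcc9 probe sets were lower in both comparisons. In sTX against ctr its log2 difference was 0.31 ± 0.14 (adjusted p = 0.15), and 1 of the other probe sets was higher (log2 0.67, adjusted p = 0.036), a call lost with the run as a block (log2 0.42, adjusted p = 0.67).

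Abcc8, the receptor of the pancreatic beta cell channel, had low signals that averaged 12.7 ± 1.6 in aTX, 17.9 ± 1.9 in sTX and 31.4 ± 6.6 in ctr, with no overlap among the 3 groups. It was called lower in aTX and in sTX against ctr (log2 -1.29 and -0.79), the second not with the run as a block (adjusted p = 0.57). Of 5 measured potassium channel genes, Kcnj16, Kcnj15 and Kcnj1 were lower in aTX against ctr, as were 27.7% of all genes. The pore subunit that pairs with Abcc9, Kcnj8, averaged 55.6 in aTX, 76.5 in sTX and 54.9 in ctr and was lower only against sTX (log2 -0.46, adjusted p = 0.013). Of 8 markers of smooth muscle and pericytes, 3 were higher and 2 lower in aTX against ctr, 6 were lower in aTX against sTX and 6 were higher in sTX against ctr (sums of 864 to 1250 in aTX, 1439 to 1814 in sTX and 738 to 898 in ctr). With the run as a block 4 were lower in aTX against sTX and 2 higher in sTX against ctr. Without the block, 27.7% of all genes were higher and 27.7% lower in aTX against ctr. The share lower in aTX against sTX was 28.4%, and the share higher in sTX against ctr was 16.1%. How far the number of such cells set the Abcc9 signal was not tested.

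Of the 7 transporters of mitochondria, peroxisomes and lysosomes, 5 were lower and none higher in aTX against ctr (median log2 -1.13), against 27.7% lower over all genes, and none had a call in sTX against ctr. With the run as a block 3 of the 5 calls held, those of Abcb6, Abcb8 and Abcd3. Abcb6, a heme and porphyrin transporter, had 42.9, 30.2, 26.3, 28.6 and 47.5 in aTX, against 75.5, 75.6, 87.4, 90.5 and 99.2 in sTX and 86.2, 92.7, 127.8, 120.6 and 92.9 in ctr. Allografts lay below all other kidneys, those of run 1 (26.3 to 30.2) below those of run 2 (42.9 to 47.5). It was 3.01-fold lower in aTX than in ctr (log2 -1.59 ± 0.16, adjusted p = 6.9e-08, limma) and 2.50-fold lower than in sTX (log2 -1.32 ± 0.16, adjusted p = 1.5e-06). With the run as a block it was also lower in sTX than in ctr (log2 -0.94, adjusted p = 0.021, against -0.27 and 0.29 without the block).

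Abcd3, which brings branched-chain and long-chain acyl-CoA into peroxisomes, had 313.3, 368.2, 219.8, 253.5 and 299.7 in aTX, against 416.2, 458.0, 601.5, 520.4 and 465.1 in sTX and 476.5, 778.2, 770.5, 507.1 and 656.6 in ctr. Every allograft lay below the other kidneys, while sTX and ctr overlapped. The log2 difference was -1.13 ± 0.15 against ctr (2.18-fold lower, adjusted p = 2.3e-06, limma) and -0.77 ± 0.15 against sTX (1.70-fold lower, adjusted p = 0.00029). Abcb8, a mitochondrial iron exporter, averaged 80.9 ± 16.2 in aTX, 113 ± 3.1 in sTX and 121 ± 17.9 in ctr and was lower in aTX in both comparisons (log2 -0.60 and -0.51). Abcb10, which takes part in heme synthesis, averaged 178 ± 9.3 in aTX, 204 ± 17.4 in sTX and 213 ± 25.5 in ctr and was lower against ctr by -0.25 ± 0.08 on the log2 scale (adjusted p = 0.020). That call was absent on its second probe set, with the run as a block (adjusted p = 0.061) and without aTX 5 or ctr 3. Abcd2, a peroxisomal transporter of very long-chain acyl-CoA, had signals of 0.8 to 5.2 in aTX, 2.7 to 8.0 in sTX and 3.7 to 8.9 in ctr, which overlapped. Its call in aTX against ctr (log2 -1.50 ± 0.57, adjusted p = 0.041, limma) was lost with the run as a block (adjusted p = 0.11) and in 7 of 10 fits that left out 1 array. The lysosomal cobalamin transporter gene Abcd4 and the lysosomal peptide transporter gene Abcb9 had no call.

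Partner genes of the same organelles were lower in part, against a background in aTX over ctr of 27.7% higher and 27.7% lower over all genes. Of 17 genes of peroxisome assembly and oxidation, 1 was higher and 13 were lower in aTX against ctr (median log2 -0.53), among them Pex11a (93.5 in aTX, 156 in sTX and 295 in ctr) and the bifunctional enzyme gene Ehhadh (291, 639 and 876), whereas the peroxin gene Pex2 was higher (166, 139 and 107). Of 15 partners in heme and iron-sulfur synthesis, 3 were higher and 10 lower (median log2 -0.41). Alad (log2 -1.02), Nfs1 (log2 -1.01) and Alas1 (log2 -0.90) were among the lower and the coproporphyrinogen oxidase gene Cpox (log2 0.52) and the mitochondrial iron importer gene Slc25a28 (log2 0.71) among the higher.

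**Figure D5:**
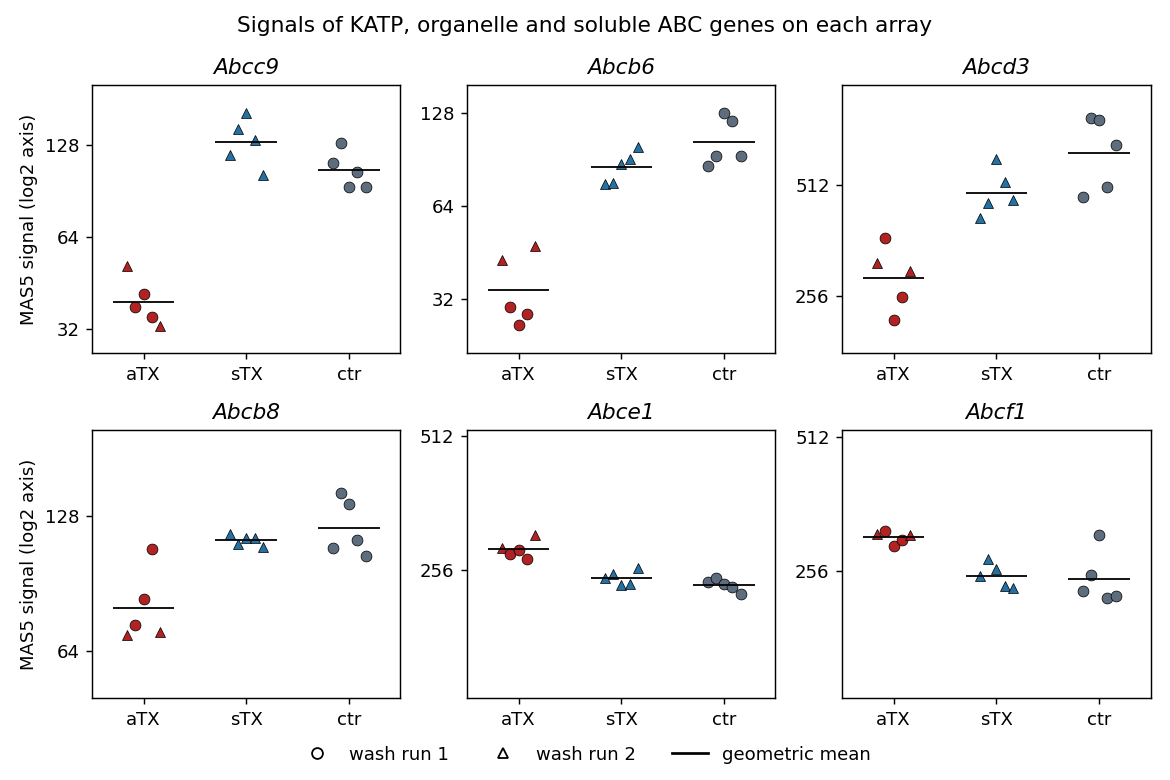
MAS5 signal (y axis, log2 scale) of Abcc9, Abcb6, Abcd3, Abcb8, Abce1 and Abcf1 on each array of aTX, sTX and ctr; circles are wash run 1, triangles wash run 2 and lines geometric means. Abcc9, Abcb6 and Abcd3 were lower in every allograft than in any other kidney, and Abce1 was higher in every allograft.

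The 4 members without a membrane domain changed little in size. Abce1, which splits ribosomes after termination, had 286.9, 278.2, 284.9, 272.1 and 307.9 in aTX, against 246.5, 251.5, 237.1, 238.2 and 259.4 in sTX and 241.0, 245.9, 238.6, 235.6 and 226.9 in ctr. Every allograft lay above every other kidney, by a small step. The gene was 1.20-fold higher in aTX than in ctr (log2 0.27 ± 0.06, adjusted p = 0.00066, limma) and 1.16-fold higher than in sTX (log2 0.21 ± 0.06, adjusted p = 0.0055). Abcf1, which binds the initiation factor eIF2, had 310.0, 314.8, 290.6, 300.7 and 307.4 in aTX, against 249.0, 272.9, 258.1, 236.3 and 234.1 in sTX and 230.2, 250.9, 308.9, 222.9 and 224.6 in ctr. Allografts lay above the syngeneic grafts without overlap and overlapped with ctr 3. It was 1.24-fold higher in aTX than in ctr (adjusted p = 0.0037, limma) and 1.22-fold higher than in sTX (adjusted p = 0.0082).

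Abcf2 averaged 196 ± 32.1 in aTX, 197 ± 9.5 in sTX and 198 ± 14.2 in ctr, and Abcf3 182 ± 6.6, 181 ± 10.5 and 190 ± 20.7, with no call in any comparison. Of 13 translation partners of Abce1 and subfamily F, 9 were higher and 2 lower in aTX against ctr (median log2 0.38). Among all genes, 27.7% were higher and 27.7% lower. The interferon-induced kinase gene Eif2ak2 had the largest difference of them (210 in aTX, 78.9 in sTX and 44.3 in ctr, log2 2.28), and Eif1a the next (415, 196 and 171, log2 1.28). The alpha subunit gene of eIF2, Eif2s1, averaged 561 in aTX, 370 in sTX and 320 in ctr (log2 0.82).

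ABC proteins under other symbols were measured as well. The peptide transporter gene Tap2 averaged 661 ± 60.9 in aTX, 75.1 ± 13.2 in sTX and 46.3 ± 12.4 in ctr, and Cftr 11.2 ± 4.8, 18.6 ± 4.2 and 51.6 ± 7.9 (log2 3.87 and -2.30 in aTX over ctr). Tap1 had a log2 change of 4.58. Of the 9 genes in the list of these proteins and their peptide-loading partners, 7 were higher and 1 was lower in aTX against ctr. The shares over all genes were 27.7% higher and 27.7% lower.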

How the data were processed

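The authors deposited MAS5 signal intensities of 31099 probe sets on 15 arrays. The methods state scaling to another mean, whereas the deposited intensities have a mean of 100 on every array once the highest and lowest 2% are trimmed. Microarray intensities carry no read depth, and the number of arrays limits the precision. After leaving out 57 control probe sets, log2 signals (floor 0.05, for 54 signals of 0) were fitted with limma 3.58.1 with an intensity trend (R 4.3.3), all 15 arrays in 1 model. Tables and plots were made with Python 3.11.15, pandas 2.3.3 and matplotlib 3.10.9. The fit was tested on simulated arrays with independent noise and changes in aTX only. No wash run effect was simulated, so that test says nothing about the runs. By rule, members called in a comparison with a group mean of at least 100 were named. Values of all arrays were given for those with the largest changes and for 9 fixed genes. Up to 3 such genes of each other list were added. Further genes are named outside this rule, among them members with low signals or no call, Nr1h3 and Kcnj8. The members, lists and roles were chosen with earlier results of these data known. Labels do not say that the numbers 1 to 5 pair kidneys. Detection calls were not used here. Alternatives covered scaling, floors, filters, tests, probe set choice, wash run and left-out arrays. Wash runs were derived from the hybridization times in the instrument records.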

Additional observations from a re-analysis of the deposited data

Results flagged for a closer look

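Within 5 of the 111 groups of 5 arrays (37 genes in 3 groups), 1 array stood apart from the other 4 by more than Dixon's 95% limit, and chance alone marks about 1 group in 20. Abca7 had a signal of 60.2 in ctr 5, against 106.2 to 121.9 in the other controls. Abcc3 had 22.8 in aTX 3, against 38.8 to 43.0 in the other allografts. Abcc4 had 186.3 in sTX 2, against 241.3 to 246.4 in the other syngeneic grafts. Abcd2 had 2.7 in sTX 1, against 6.1 to 8.0, signals near the lower end of the scale. Abcf2 had 252.4 in aTX 2, against 173.4 to 191.6 in the other allografts.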

How the results depend on the processing

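Under the alternatives run, no call of a member changed direction. In aTX against ctr the 17 lower genes became 11 at an unadjusted p of 0.001 and 9 by the methods' t-test at that p. In aTX against sTX the 4 higher genes became 2 at an unadjusted p of 0.001 and the 14 lower genes 8 by the methods' t-test at that p. In sTX against ctr the 5 lower genes became 9 with median centring, 3 by the methods' t-test at 0.001 and after Benjamini-Hochberg adjustment, and, blocking on the wash run, 2 (Abcg2 and Abcb6). Over all probe sets, the median was -0.06 on the log2 scale with median centring (-0.18 without it) in aTX against sTX and -0.11 (0.09 without it) in sTX against ctr. Centring split the calls into 6 higher and 11 lower (4 and 14 without it) and 2 and 9 (3 and 5 without it). After quantile normalization sTX had 2 higher and 6 lower genes against ctr. Leaving out 1 array at a time gave 5 higher and 15 to 18 lower genes in aTX against ctr, 4 to 5 and 12 to 15 in aTX against sTX, and 3 and 5 to 6 in sTX against ctr. Calls were lost for Abca5, Abca8 and Abcc6 in aTX against sTX and Abcb10, Abcb1a and Abcd2 in aTX against ctr, the last in 7 of 10 cases (log2 -1.82 to -1.14). Without aTX 3 or sTX 3, Abcc6 reached adjusted p = 0.057 and 0.061. With a floor of 10, Abcd2 gave no value, all its signals being lower. With the replicate number as a block the counts were 5 and 17, 4 and 14, and 3 and 5, and no call changed. After removing group means, 0 of 15 same-number pairs had a correlation above 0.1 (-0.019 to 0.027), so the numbers were not taken as pairs. Without sTX 4 and sTX 5 there were 3 higher and 13 lower genes in aTX against sTX and 3 and 6 in sTX against ctr.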

Other observations

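For 11 of the 37 genes the allografts of the 2 wash runs did not overlap, against 23.9% of all probe sets, a share near that of the members. Of the 11 genes whose signals in aTX 1 and aTX 5 (run 2) did not overlap with those in aTX 2, aTX 3 and aTX 4 (run 1), 6 had higher signals in run 2. Among these were Abcc1 (112.3 to 129.0 in run 2 and 73.6 to 83.2 in run 1), Abcb6 (42.9 to 47.5 in run 2 and 26.3 to 30.2 in run 1) and Abcg1 (356.1 to 418.4 in run 2 and 320.6 to 344.6 in run 1), and the other 5, among them Abcb8 (69.3 to 70.4 in run 2 and 73.2 to 108.0 in run 1), had lower ones. These genes were chosen after their values had been seen, and whether the wash run or the kidneys differ cannot be told apart.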
